A study of Mus musculus with 12 samples.

Results

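CD4 T cells are the helper and regulatory arm of the T lineage. Their receptor is built from an alpha and a beta chain, it signals through the CD3 complex, and the CD4 co-receptor steers it to peptides on MHC class II. Naive CD4 T cells circulate through lymphoid tissue under the transcription factors Lef1, Tcf7 and Klf2, regulatory CD4 T cells are directed by Foxp3, and innate-like T cells, which settle early in life in the liver, depend on Zbtb16 (PLZF). The cells described here are the CD4 T cells found by transcript counts among the liver cells of neonatal mice with phlebotomy-induced anemia (PIA) and of their controls.

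The members were chosen by raw transcript counts, with each distinct transcript molecule counted once by its unique molecular identifier (UMI). A barcode was kept if its total lay between 500 and 50000 UMIs and mitochondrial transcripts made up no more than 20% of it. It was a member with at least 2 UMIs of Cd3e, Cd3d and Cd3g together and at least 1 of Cd4, none of Cd8a, Cd8b1, Ncr1 or Klrb1c, at most 1 of Top2a and Mki67 together, and none of Cd79a, Lyz2, C1qa, Stab2 or Siglech. This gate held 329 cells of 202557 kept cells (207537 barcodes in all), with 163 cells from control and 166 from anemic mice. The levels of these 15 genes in the members were set by the choice and are given as description.

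Livers came from 12 C57BL6/J pups, with 1 library per mouse, collected on postnatal day 11. The 6 anemic pups had been bled 20 µL/g on alternate days from postnatal day 2 to day 10, toward a hematocrit of 20% to 24%. The 6 control pups had received a daily needle stick without blood loss. All libraries carried the same batch label, the strain was the only genotype given, and Xist transcripts showed female livers for 4 of 6 control and 2 of 6 anemic mice. Each library held 46252146 to 74545930 UMIs, and 6 mice per group are the replicates of every test below.

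Membership rested on few molecules. The member cells carried 788 to 13719 UMIs (median 2017), 288 of the 329 had exactly 1 Cd4 UMI, and 76 sat at exactly 2 UMIs of the CD3 genes. Just outside, 5072 cells met every condition but had neither a Cd4 nor a Cd8 UMI, 320 fell short on the CD3 genes, and 9 had both Cd4 and Cd8 UMIs. The 3 gates compared below are therefore the CD4 gate, the CD8 gate (1616 cells with a Cd8a or Cd8b1 UMI and no Cd4 UMI, all other conditions alike) and the gate without either co-receptor UMI. With 1 Cd4 UMI as the usual evidence, the last gate also holds CD4 T cells whose Cd4 transcripts were not captured. No member barcode occurred in more than 1 library, and no doublet caller was run beyond the conditions on other lineages.

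T cell genes that the choice had not used were present in the members. A UMI of the receptor constant regions Trac, Trbc1 or Trbc2 was found in 312 of 329 members (94.8%) and in 94.6% of the CD8 gate, against 1.88% of B cells and 2.70% of macrophages from the same libraries, whose cells lacked CD3 UMIs and had at least 2 UMIs of Cd79a or C1qa, respectively. At least 1 of Themis, Cd28, Cd5, Cd247, Lck and Bcl11b was found in 98.2% of the members and in 92.6% of the CD8 gate, against 7.11% of B cells and 7.34% of macrophages. Of the 4 genes that mark the cells here, Themis, a receptor signalling adaptor, was detected in 41.6% of members and Cd28, the costimulatory receptor, in 68.7%. The CD8 gate had 45.8% and 41.5%, so detection of Themis did not tell these gates apart. In the summed UMIs of each mouse, Themis reached 339 ± 127 counts per 1000000 UMIs (CPM; mean ± SD, n = 12 mice) and Cd28 636 ± 141, against 11.9 and 25.8 CPM over all kept cells. The other 2 marker genes were used by the choice and reached 1093 ± 201 CPM (Cd3e) and 469 ± 33.4 CPM (Cd4). In GRCm38, Cd4 lies on chromosome 6 (124864692 to 124888221), Cd3e on chromosome 9 (44998740 to 45009627), Themis on chromosome 10 (28668360 to 28883818) and Cd28 on chromosome 1 (60716800 to 60773359).

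Zbtb7b (ThPOK), the regulator that commits thymocytes to the CD4 lineage, was sparse. It gave 12 UMIs in all members, in 11 of 329 cells (3.34%), against 0.681% of the cells of the CD8 gate and 11.9% of macrophages, so its detection here did not stand clear of other liver cells. Runx3, its counterpart of the CD8 lineage, was lower in the CD4 gate than in the CD8 gate in 12 of 12 mice, at 94.7 ± 52.7 against 268 ± 42.7 CPM. In the gate without either co-receptor UMI it stood at 271 ± 41.2 CPM. The alpha-beta receptor chains mark the members as T cells and do not tell the gates apart, so the name CD4 rested on the co-receptor UMI, with lower Runx3 beside it.

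Some genes separated the CD4 gate from both other T cell gates in each mouse. Among 2446 genes not used by the choice and with at least 5 UMIs per mouse on average in the CD4 gate, 36 were higher there than in both other gates in 12 of 12 mice, and 16 were lower. Another 4572 genes reached that level only in the CD8 gate, which holds more cells, and were left out of these counts. With them, 67 of 7018 genes were lower in 12 of 12 mice, while the count of higher genes kept the CD4 limit. That limit removes genes low in the CD4 gate, so the counts of higher and lower genes cannot be weighed against each other. These counts describe the gates and were not tested, since the gates had been cut by co-receptor UMIs. The genes named in this paragraph and the next one were chosen after their values were seen, apart from those on the fixed lists. St8sia6, a sialyltransferase, stood at 159 CPM in the CD4 gate, 1.52 in the CD8 gate and 39.0 in the gate without either co-receptor. Ctla4, the inhibitory receptor that competes with CD28, stood at 466 ± 234, 42.6 and 118 CPM. Izumo1r (folate receptor 4) stood at 124, 16.7 and 48.6 CPM, and the negative regulator of receptor signalling Cd5 at 327 ± 71.6, 114 and 116 CPM. Cd28 (636, 329 and 426 CPM), Tcf7 (512, 304 and 250 CPM), Bach2 (1398, 902 and 867 CPM) and Stat5b (651, 342 and 332 CPM) were also higher in each mouse.

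Of the 16 genes lower in the CD4 gate of each mouse, 4 belong to the list of effector and memory genes, of which 21 of 27 reached the limit, and 0 genes of that list were higher. The chemokine Ccl5 averaged 1140 CPM in the CD4 gate against 9054 in the CD8 gate, 7.94 times more. The granzyme Gzmb stood at 161 against 783 CPM, Nkg7, a granule protein, at 198 against 772 CPM, and the granzyme Gzma, most of it from 1 control mouse, at 65.6 against 937 CPM. The last 3 are also the genes of the natural killer list that reached the limit, 3 of its 16. The nuclear receptor Nr4a2 averaged 180 against 590 CPM, the phosphatase Ptpn22 517 against 934 CPM and the guanine nucleotide exchange factor Dock10 769 against 1366 CPM. The gate without either co-receptor UMI was near the CD8 gate in these genes. It held Ccl5 at 9924, Gzmb at 834, Nkg7 at 725, Gzma at 1087, Nr4a2 at 563, Ptpn22 at 942 and Dock10 at 1371 CPM. The gamma-delta receptor constant gene Trdc gave 16 UMIs in 4 of 329 members, too few to compare. The same condition against Ncr1 and Klrb1c UMIs applied to all 3 gates.

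**Figure D1:**
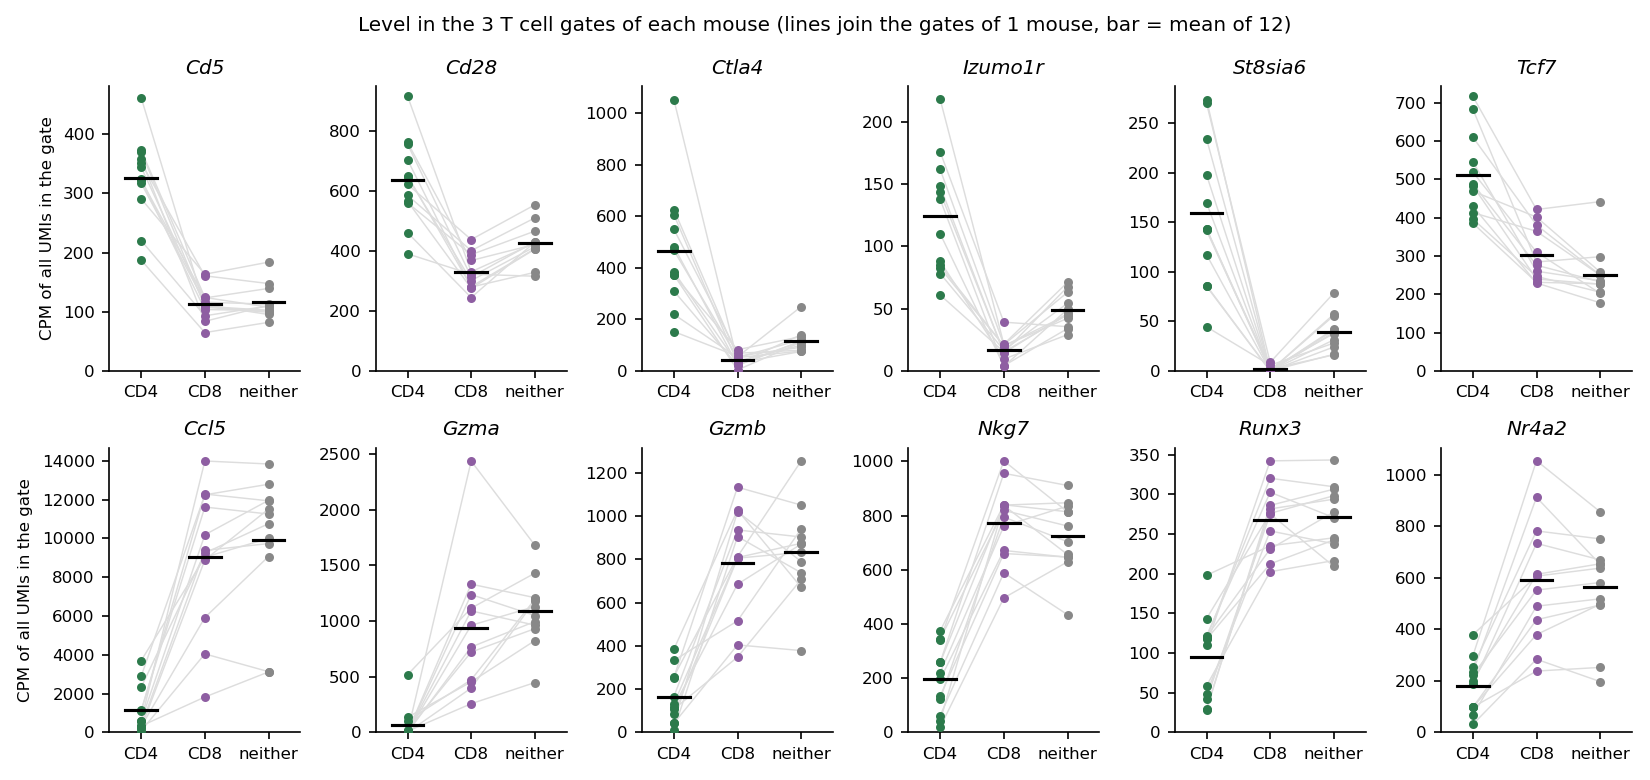
Level of 12 genes in the CD4 gate, the CD8 gate and the gate without either co-receptor UMI ("neither"), in CPM of all UMIs in the gate. Each point is a mouse, grey lines join the gates of a mouse, and black bars are means over 12 mice; the 6 genes of the upper row were higher in the CD4 gate in 12 of 12 mice, and the 6 genes of the lower row were lower.

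Within the gate, groups of cells defined by single transcripts differed in many other genes. Of the 329 members, 114 had a UMI of Ccr7, the chemokine receptor for homing to lymph nodes, 47 had a UMI of Zbtb16, and 25 had a UMI of Foxp3. Zbtb16 and Ccr7 were found together in 3 cells, so 6.38% of the cells with Zbtb16 carried Ccr7 against 39.4% of those without it, although the cells with Zbtb16 were deeper (median 2708 against 1980.5 UMIs). Foxp3 and Zbtb16 met in 1 cell. The cells were split on the same counts and many of the genes named were chosen after their values were seen, so the values that follow are descriptions pooled over mice, with exact Poisson intervals at 95% that cover counting error only.

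The cells with Zbtb16 carried the interleukin 4 transcripts of the gate. All 63 Il4 UMIs lay in 14 of these 47 cells from 9 mice, 448 CPM (344 to 573), and the other 282 members held 0. The 14 cells were 8 from control and 6 from anemic mice. The homing receptor of liver-resident lymphocytes Cxcr6 was at 341 CPM (252 to 453) against 43.4, higher in the cells with Zbtb16 in 11 of 12 mice, and the costimulator Icos was at 647 CPM (521 to 795) against 218, also in 11 of 12. Ccl5 stood at 2845 CPM against 727. The naive genes Lef1 (341 against 1490 CPM) and Klf2 (213 against 1032 CPM) and the inhibitory receptor Ctla4 (85.4 against 547 CPM) were lower in the cells with Zbtb16 in 12 of 12 mice. Each mouse held only 1 to 7 cells with Zbtb16, so a gene with no UMI captured there counts as lower. Zbtb16 itself lies on chromosome 9 (48654297 to 48836222).

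The cells with Foxp3 had higher levels of several genes of the regulatory list. Ctla4 was detected in 22 of these 25 cells (88.0%) against 23.7% of the other members, and the 25 cells came from 10 of 12 mice and were deeper (median 3044 against 2000 UMIs). The interleukin 2 receptor chain Il2ra was at 326 CPM (219 to 469) against 30.5, Tnfrsf18 (GITR) at 563 CPM (418 to 742) against 101, and the Helios gene Ikzf2 at 2666 CPM (2338 to 3028) against 900. S100a6, a calcium binding protein, was at 4061 against 708 CPM. Amphiregulin (Areg), a tissue repair factor, gave 67 of its 92 UMIs in 5 of the cells with Foxp3. By mouse it was higher in the cells with Foxp3 in 4 of 10 and lower in 4, and 1 member held 31 of the 92 UMIs. Other genes of the list did not follow: Nrp1 was at 33.8 against 33.3 CPM, Ikzf4 and Gpr83 gave 0 UMIs in these cells and 8 and 7 in the others, and 256 of the 378 Ctla4 UMIs lay in cells without Foxp3. Ikzf2 was higher in the cells with Foxp3 in 10 of 10 mice, and Themis (56.3 against 387 CPM) and Satb1 (585 against 2883 CPM) were lower in 10 of 10. These mice held only 1 to 5 cells with Foxp3 each, so a gene with no UMI captured there counts as lower.

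In the cells with Ccr7, 15 of 16 other genes of the naive and quiescence list were higher, at a similar depth (median 2058 against 2001 UMIs), and Il7r, the interleukin 7 receptor chain, was at 219 CPM (168 to 280) against 270 CPM (228 to 319). Lef1 was at 1789 CPM (1637 to 1950) against 1015 and Tcf7 at 774 CPM (676 to 883) against 380, both higher in 11 of 12 mice. Klf2 was at 1170 against 735 CPM, higher in 9 of 12, and Satb1 at 3480 against 2162 CPM, higher in 10 of 12. Ccl5 was at 45.1 CPM (24.0 to 77.2) against 1675, lower in 12 of 12 mice, and Cxcr6 gave 0 UMIs in the 114 cells against 77 UMIs in the other 215. Of all members, 104 had no UMI of Foxp3, Ctla4, Zbtb16 or Ccr7. The recombination genes Rag1 and Dntt and the pre-T receptor gene Ptcra, which mark thymocytes, were at 0 UMIs in all 329 cells. If the cells are taken as independent, this allows for each gene a share of up to 0.912% of cells with a UMI. It sets no limit on transcripts that were not captured. Of the helper cytokines fixed in the list, Il5, Il13, Il17a, Il17f, Il21, Il22 and Csf2 were at 0.

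**Figure D2:**
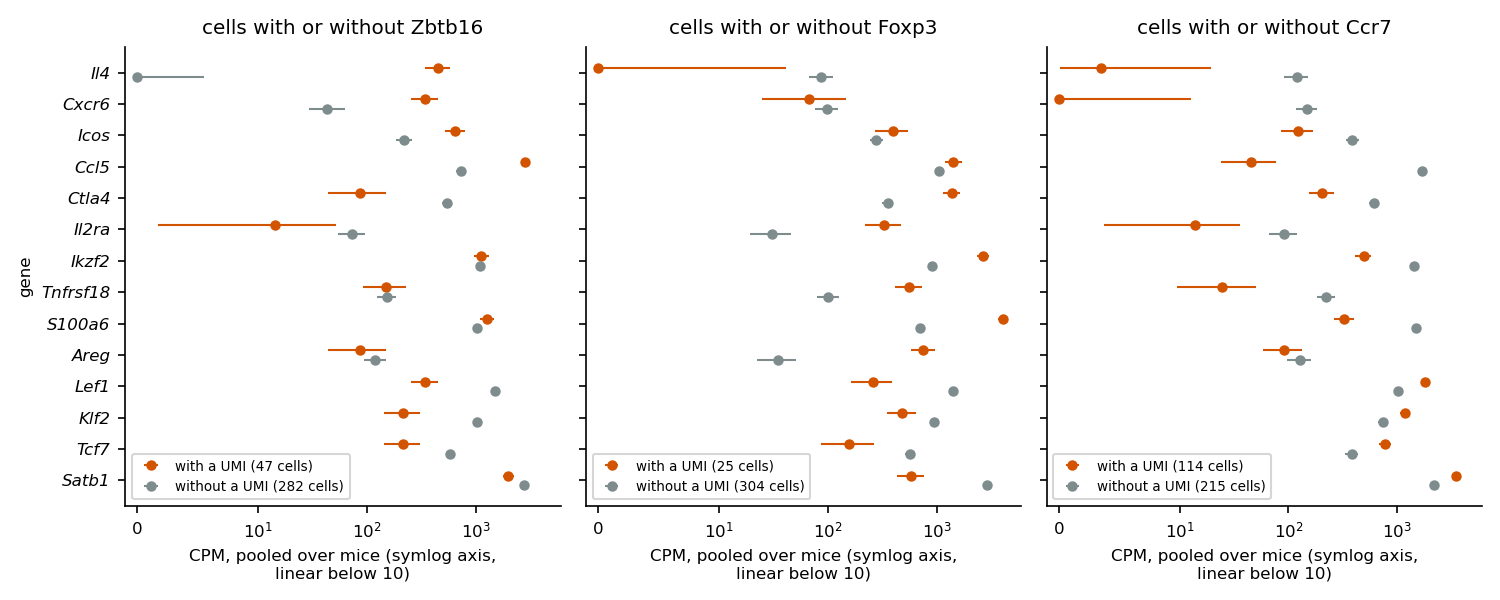
Level of 14 genes in members with a UMI of Zbtb16, Foxp3 or Ccr7 (orange) and in the other members (grey), pooled over mice, in CPM on an axis that is linear below 10 and logarithmic above. Whiskers are exact Poisson intervals at 95%; Il4 lies in the cells with Zbtb16, Il2ra, Ikzf2 and S100a6 are highest in those with Foxp3, and Lef1 and Tcf7 are higher in those with Ccr7.

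Whether PIA changed the number of CD4 T cells was asked first as a share of all kept cells. The share in control mice ran from 0.0995% (exact binomial interval 0.0569% to 0.162%) through a median of 0.178% to 0.224% (0.160% to 0.305%), and in anemic mice from 0.109% through 0.149% to 0.220%. The ranges of the groups overlapped over nearly their whole length. The means were 0.168% ± 0.0426 and 0.156% ± 0.0460 (SD, n = 6 each), and the difference did not pass the exact two-sided permutation test on ranks (p = 0.818, adjusted p = 0.937 over 4 shares; interval of the shift -0.0698 to 0.0495 percentage points). The sign of the difference, -0.012 percentage points, depended on the cells counted: it was 0.0125 for members with at least 2 Cd4 UMIs, 0.0249 with globin-rich cells left out of the denominator and 0.0365 among Ptprc-positive cells (exact permutation p = 0.132, 0.818 and 0.937). A share says nothing of absolute cell numbers, since the other cells of the liver set its denominator.

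All T cells are here the cells that met the choice without its conditions on Cd4 and Cd8, 7026 in all. Of these, 5072 had no UMI of either co-receptor, and receptor constant regions were not counted per cell there. As a share of all T cells so defined, the CD4 T cells came to 4.02% ± 0.828 in the control group and 5.78% ± 2.15 in the anemic group (SD, n = 6 each). Control mice ran from 2.95% to 5.02% (median 4.26%) and anemic mice from 3.25% to 9.54% (median 5.45%), with the highest value in 1 anemic mouse with 39 CD4 T cells of 409 T cells. The groups overlapped, and the difference did not pass the exact permutation test (p = 0.0649, adjusted p = 0.26; interval of the shift -0.0856 to 4.51 percentage points). Among members with at least 2 Cd4 UMIs, 41 cells in all, the share of T cells was 0.314% against 0.973% (exact permutation p = 0.0152), while among cells of at least 1000 UMIs, each thinned to 1000, the shares were 1.89% and 2.25% (exact permutation p = 0.937). The direction was shared and the call was not. Thinning left out the shallower cells, 14715 of 96110 kept cells of control and 16548 of 106447 of anemic mice.

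The denominator of that share, taken as a share of kept cells, did differ between the groups. All T cells made up 4.19% ± 0.673 of the kept cells in control and 2.79% ± 0.461 in anemic mice (exact permutation p = 0.00433, adjusted p = 0.00649 over 3 shares). The cells without a co-receptor UMI fell from 3.16% ± 0.489 to 1.90% ± 0.366 (exact permutation p = 0.00216, adjusted p = 0.00649). For the CD8 gate the values were 0.860% ± 0.169 and 0.732% ± 0.244 (exact permutation p = 0.31). These 3 shares were not recomputed without globin-rich cells or among Ptprc-positive cells, as was done for the CD4 gate. Red cell genes summed to a mean of 22594 CPM over all kept cells in control and 94463 CPM in anemic mice. The part of red cells in these shares was not tested. Depth, which decides whether a co-receptor UMI is captured, moved with the groups: the median UMIs of the cells without a co-receptor UMI were 1697 to 1900 in control and 1963 to 2334 in anemic mice. Among kept cells of at least 1000 UMIs, each thinned to 1000, an alternative chosen after seeing the data, these cells came to 3.90% and 2.53% (exact permutation p = 0.0152), all T cells to 4.61% and 3.06% (exact permutation p = 0.0152) and the CD8 gate to 0.621% and 0.462% (exact permutation p = 0.18).

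**Figure D3:**
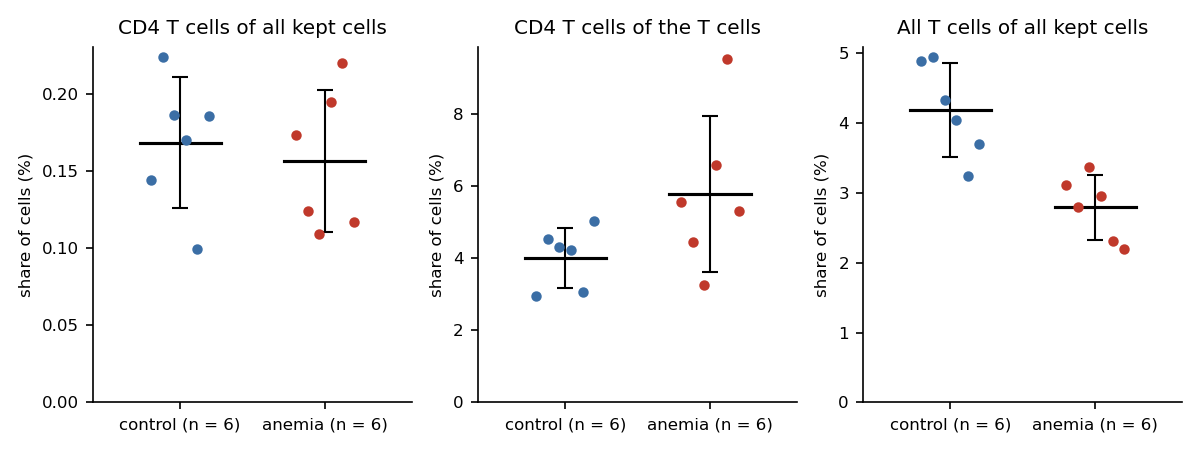
Share of CD4 T cells among all kept cells and among T cells, and share of all T cells among kept cells, in percent, with 1 point per mouse, the mean (bar) and the SD (whisker). The CD4 shares of the 6 control and 6 anemic mice overlap, and the share of all T cells is 4.19% in control and 2.79% in anemic mice on average.

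The makeup of the CD4 T cells was then compared by 14 genes, as the share of members with a UMI among those of at least 1000 UMIs, each thinned to 1000 (160 control and 164 anemic cells). None of the 14 passed the exact permutation test, and the lowest adjusted p was 0.883. The share of members with Ctla4 was 18.3% ± 7.08 (control) and 23.3% ± 6.10 (anemia; SD, n = 6 each), against 0.31% of B cells, and at 700 UMIs the difference of 4.96 percentage points turned to -1.02. Ikzf2 was found in 29.9% ± 12.5 and 34.3% ± 7.72, against 0.514% of B cells. Zbtb16 was found in 16.4% ± 9.41 and 10.6% ± 4.91, against 0.203% of B cells and 0.325% of macrophages. Cxcr6 had the lowest p, with 10.4% ± 4.51 against 5.02% ± 6.64 (exact permutation p = 0.126). Foxp3 was found in 4.40% ± 4.34 and 4.16% ± 5.61 after thinning, and in 8.29% and 7.48% before it, and the sign of its difference turned at 700 UMIs and without any of 5 single mice. Ccr7 (26.7% and 18.8%) and Cd44 (11.2% and 9.51%) are also transcribed by B cells, where 13.7% and 11.4% of cells had a UMI, and Cd44 by 66.9% of macrophages.

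Gene expression was compared on the summed counts of each mouse (34869 to 102304 UMIs of members), for 2450 genes with at least 5 UMIs per mouse on average. In edgeR's quasi-likelihood test no gene passed an adjusted p of 0.05 (0 of 2450, percent called 0), and 150 genes (6.12%) had an unadjusted p under 0.05, 77 (3.14%) higher and 73 (2.98%) lower in anemia. DESeq2 called 7 genes on the same sums and limma with voom weights 0. The lowest adjusted p in the edgeR test was 0.16. In what follows, levels are CPM scaled by TMM factors over the tested counts, which hold no mitochondrial and ribosomal protein genes, and each comparison is given as a value that did not pass the test. The median log2 fold change of all genes was -0.004. Beside the 4 marker genes and the most abundant genes of each list, the genes named below were chosen after their values were seen.

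In 6 genes the 6 anemic and the 6 control mice did not overlap, 2 (0.0816% of those tested) above and 4 (0.163%) below. Full separation of 6 against 6 mice has p = 0.00217 in the exact two-sided permutation test of ranks. The number of such genes among 2450 was near that rate, so they are described without a claim of difference. Ldlrad4, an inhibitor of TGF-beta signalling, ran from 204 to 451 CPM in control (median 357) and from 516 to 810 in anemic mice (median 664). Each anemic mouse lay above each control mouse, and the log2 fold change was 0.96 ± 0.22 (SE; adjusted p = 0.16 in edgeR, and 0.0393 in DESeq2). Rassf3, a Ras association domain protein on chromosome 10 (121410350 to 121476347), ran from 89.3 to 229 CPM in control (median 190) and from 288 to 668 in anemic mice (median 362), a log2 fold change of 1.16 ± 0.28 (adjusted p = 0.16). Among the 4 lower genes, Larp4, an RNA-binding protein on chromosome 15 (99970065 to 100016358), ran from 119 to 272 CPM in control (median 197) and from 30.4 to 103 in anemic mice (median 72.3), with 48 UMIs against 19 and a log2 fold change of -1.40 ± 0.36 (adjusted p = 0.201). Ubl5, a ubiquitin-like splicing factor, ran from 473 to 714 CPM and from 273 to 456 CPM, a log2 fold change of -0.69 ± 0.21 (adjusted p = 0.408). Aprt and Acbd5 had log2 fold changes of -0.84 ± 0.31 and -0.60 ± 0.28.

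**Figure D4:**
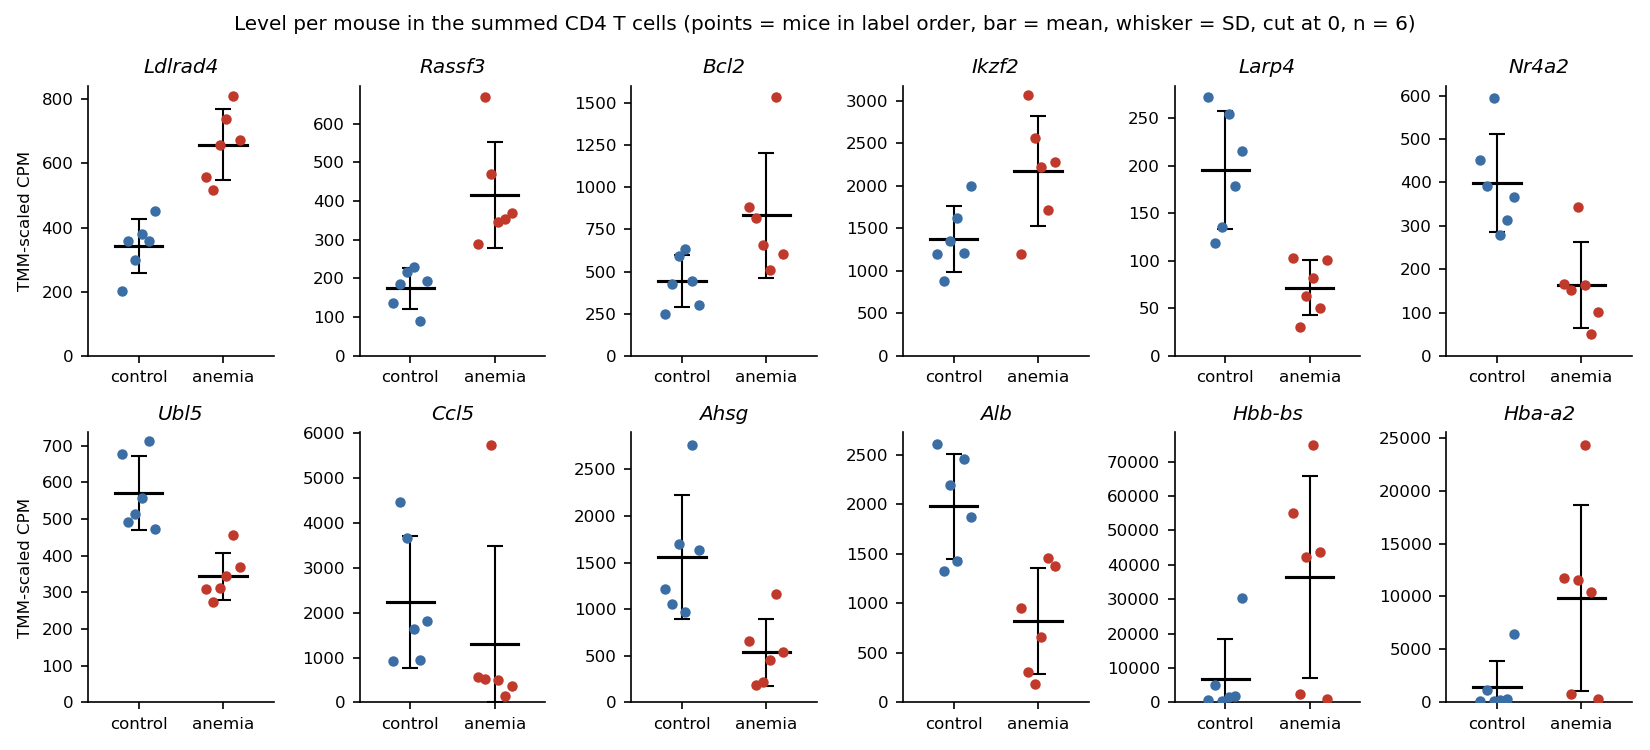
Level of 12 genes in the summed CD4 T cells of each mouse, in TMM-scaled CPM, with the mean (bar) and the SD (whisker, cut at 0) of 6 control and 6 anemic mice. Ldlrad4, Rassf3, Larp4 and Ubl5 do not overlap between the groups, 1 anemic mouse is far above the others in Ccl5, and 1 control mouse is far above the others in Hbb-bs and Hba-a2.

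Receptor signalling genes showed no common direction. Of the 24 genes of that list 23 were tested, 15 with a positive and 8 with a negative log2 fold change (median 0.22), and at an unadjusted p under 0.05 there was 1 higher and 1 lower. Cd28 ran from 996 to 1428 CPM in control (median 1115) and from 607 to 1013 in anemic mice (median 912), a log2 fold change of -0.38 ± 0.18 (adjusted p = 0.779 in edgeR). Themis averaged 479 ± 197 CPM without and 594 ± 227 CPM with anemia (SD over 6 mice, here and below), and its log2 fold change was 0.40 ± 0.28 (adjusted p = 0.88), or 0.25 without control 3 and without anemia 4. The signalling adaptor Skap1 had 2447 ± 295 and 2871 ± 523 CPM, and the receptor chain Trbc2 2153 ± 799 and 1830 ± 360 CPM.

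Genes of naive and quiescent T cells were mostly positive, 13 of the 16 tested, with a median log2 fold change of 0.27 against -0.004 for all genes, and 4 higher and 1 lower at an unadjusted p under 0.05. Bcl2, which protects lymphocytes from apoptosis, ran from 249 to 635 CPM in control (median 436) and from 509 to 1537 in anemic mice (median 738), a log2 fold change of 0.96 ± 0.28 (adjusted p = 0.288 in edgeR). The ranges overlapped, and the highest value was that of 1 anemic mouse. Btg1, a factor of T cell quiescence, had 1165 ± 166 and 1647 ± 289 CPM (log2 fold change 0.50 ± 0.17, adjusted p = 0.514), and Foxo1, which drives Il7r, went the other way with 794 ± 214 and 475 ± 159 CPM (-0.70 ± 0.24, adjusted p = 0.504). The most abundant members of the list, the chromatin organizer Satb1 (3571 ± 684 and 4485 ± 1148 CPM), Foxp1 (2158 ± 366 and 2297 ± 496), Bach2 (2190 ± 224 and 2218 ± 580) and Lef1 (1912 ± 564 and 2060 ± 614), differed by less than the larger of their SDs.

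Among the regulatory T cell genes 9 of 18 were tested, 7 with a positive value, and 1 was higher at an unadjusted p under 0.05. That gene was Ikzf2, on chromosome 1 (69531214 to 69687245), which ran from 884 to 1999 CPM in control (median 1279) and from 1195 to 3066 in anemic mice (median 2250), a log2 fold change of 0.65 ± 0.23 (adjusted p = 0.514 in edgeR). In the members without Alb UMIs and with at most 2% globin it turned to -0.16. That set held only 3 to 6 cells per control and 1 to 16 per anemic mouse, since 138 control and 105 anemic members had an Alb UMI. It was thus cut unequally between the groups, and the cause of the turn was not tested. In the CD8 gate of the same mice the log2 fold change of Ikzf2 was -0.54, and the difference between the gates, 1.26 ± 0.28, had an adjusted p of 0.0639. Ctla4 had 765 ± 477 and 693 ± 211 CPM (log2 fold change -0.20 ± 0.31), and Tnfrsf4 (OX40) 174 ± 41.5 and 342 ± 271 CPM (0.89 ± 0.44, adjusted p = 0.779; 0.52 without anemia 6 and 0.44 in limma with voom weights). Foxp3 was under the limit for the test, with 17 UMIs in control and 18 in anemic members. Lineage regulators had 6 positive and 6 negative values of 12 tested, with 2 higher at an unadjusted p under 0.05. Ets1, which sustains T cell survival, had 1679 ± 207 and 2224 ± 359 CPM (0.40 ± 0.17, adjusted p = 0.695). Zbtb16 had 405 ± 218 and 422 ± 252 CPM.

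Effector and memory genes had negative values for 13 of 21 tested (median -0.09), and 3 were lower at an unadjusted p under 0.05. Ccl5 ran from 928 to 4469 CPM in control mice (median 1716). In 5 anemic mice it ran from 135 to 577 CPM, below each control mouse, and in the remaining one it reached 5727 CPM. The log2 fold change was -0.86 ± 0.59 (adjusted p = 0.868 in edgeR), and without that mouse, the third of the anemic group, it was -2.44 (adjusted p = 0.0093). Of the 886 Ccl5 UMIs, 400 came from the 47 cells with Zbtb16. Nkg7 had 405 ± 137 and 211 ± 188 CPM (-1.08 ± 0.42, adjusted p = 0.597). Gzma had 61 UMIs in 5 control cells and 2 UMIs in 2 anemic cells, 47 of them in 1 control mouse, so its log2 fold change of -4.43 ± 1.12 (adjusted p = 0.201) rested on 7 of the 329 cells. The nuclear receptor Nr4a2, an early response gene of receptor stimulation, ran from 279 to 595 CPM in control (median 378) and from 50.7 to 344 in anemic mice (median 158), a log2 fold change of -1.36 ± 0.33 (adjusted p = 0.16). It was -0.96 (adjusted p = 0.0246) in the CD8 gate of the same mice. Immediate early genes as a list had 16 negative values of 22 tested (median -0.25), with 2 lower at an unadjusted p under 0.05. The most abundant, Jund (2726 ± 736 and 2531 ± 482 CPM) and Junb (2605 ± 640 and 2562 ± 511 CPM), differed by less than their SD.

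Lists for systemic signals came to 4 genes of 61 tested with an unadjusted p under 0.05 (6.56%), against 6.12% of all genes. Of glucocorticoid response genes 6 were tested, with 1 higher and 1 lower at an unadjusted p under 0.05. Tsc22d3 (GILZ) had 67.6 ± 25.1 and 168 ± 94.9 CPM (log2 fold change 1.35 ± 0.42, adjusted p = 0.419 in edgeR), and Zfp36l2 1500 ± 192 and 1080 ± 146 CPM (-0.47 ± 0.17, adjusted p = 0.543). Of 14 hypoxia and glycolysis genes 11 were positive (median 0.25) and none had an unadjusted p under 0.05; Gapdh had 2603 ± 953 and 2528 ± 524 CPM. Of 18 interferon response genes 13 were positive (median 0.18), with 1 higher at an unadjusted p under 0.05, and B2m, the light chain of MHC class I, had 2465 ± 284 and 2507 ± 459 CPM. Of 2 iron genes tested, the ferritin chains Fth1 and Ftl1 had 3755 ± 376 and 4118 ± 1495 CPM and 1940 ± 224 and 1767 ± 176 CPM. Of 21 respiratory and translation genes 17 were negative (median -0.19), with 1 lower. Cytokine receptor genes had 12 positive of 19 tested, with 1 higher and 1 lower, and trafficking genes 6 of 14, with 0 of either. Helper cytokine genes had 2 positive of 5 tested, with 1 lower, survival genes 4 of 6, with 1 higher, and innate-like genes 1 of 3. Of the thymocyte list 1 gene of 12 was tested, with a positive value.

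Transcripts of hepatocytes and red cells, which T cells do not make, were counted in the members. Their mean summed levels differed between the groups, but the ranges overlapped and none of these genes passed the test. The summed level of 38 hepatocyte genes (37 detected, Mup20 at 0) ran from 5883 to 14110 CPM of all UMIs in control and from 2151 to 8020 in anemic mice, against a mean of 18204 over all kept cells. Of the 16 tested, 15 were negative (median -1.02) and 10 were lower at an unadjusted p under 0.05. The secreted glycoprotein Ahsg ran from 965 to 2767 CPM in control (median 1428) and from 182 to 1165 in anemic mice (median 498), a log2 fold change of -1.42 ± 0.32 (adjusted p = 0.16 in edgeR). Albumin (Alb) ran from 1325 to 2602 and from 188 to 1452 CPM (-1.23 ± 0.32, adjusted p = 0.201), and Apoa1, Ttr and Trf had log2 fold changes of -1.34, -1.26 and -0.82. An Alb UMI was present in 243 of 329 members.

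Globin transcripts went the other way. The 21 red cell genes in the tables (17 detected, with Epb42, Hemgn and Klf1 among those at 0) summed to 861 to 32139 CPM in control and 1297 to 83232 in anemic mice. Of the 6 tested, 6 were positive (median 2.40) and 5 were higher at an unadjusted p under 0.05. Hbb-bs ran from 541 to 30430 CPM in control (median 1788) and from 940 to 74709 in anemic mice (median 42973), a log2 fold change of 2.43 ± 0.85 (adjusted p = 0.514 in edgeR). Control 6 stood apart from the other control mice, and without it the value was 4.15 (adjusted p = 0.0182), with Hba-a1, Hba-a2, Hbb-bt and Alas2 called as well. A few cells carried these sums: over 2% of the UMIs were globin in 14 of the 329 members (5 control and 9 anemic cells), which held 94.7% of the globin UMIs of the gate, and 1 cell held 3093 of the 13156 Hbb-bs UMIs. The median globin share of a member was 0.025% to 0.152% in control and 0.0666% to 0.275% in anemic mice. With the hepatocyte and red cell lists taken out of the counts, 0 of 2428 genes were called and 143 had an unadjusted p under 0.05. The part of these transcripts in the values of single T cell genes was not tested.

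Transcripts of other lineages summed to less in the members than over all kept cells. The choice had removed cells with a UMI of Cd79a, Lyz2, C1qa, Stab2, Siglech, Ncr1 or Klrb1c. These sums were thus set in part by the choice and are given as description. The 18 macrophage genes summed to 119 to 445 CPM in control and 229 to 508 in anemic mice, against 8593 over all kept cells, with Cd163 and Lyz1 at 0. The 12 neutrophil genes summed to 14.8 to 155 and 0 to 182 CPM, with Mpo and Chil3 at 0. The 15 B cell genes summed to 143 to 1116 and 142 to 332 CPM, with Ms4a1, Cd22 and Igll1 at 0. The 16 natural killer genes, several of which T cells also make, summed to 551 to 1642 and 125 to 1214 CPM, with Eomes, Klra8, Klra4 and Cma1 at 0. Endothelial and stellate genes summed to 638 to 1036 and 627 to 1174 CPM, most of it Pecam1, which the CD4 gate carried at 661 CPM against 281 in the CD8 gate. The tested genes of these 5 lists, 6 in all, had 1 positive value, and 2 natural killer genes (Nkg7 and Gzma) were lower at an unadjusted p under 0.05.

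**Figure D5:**
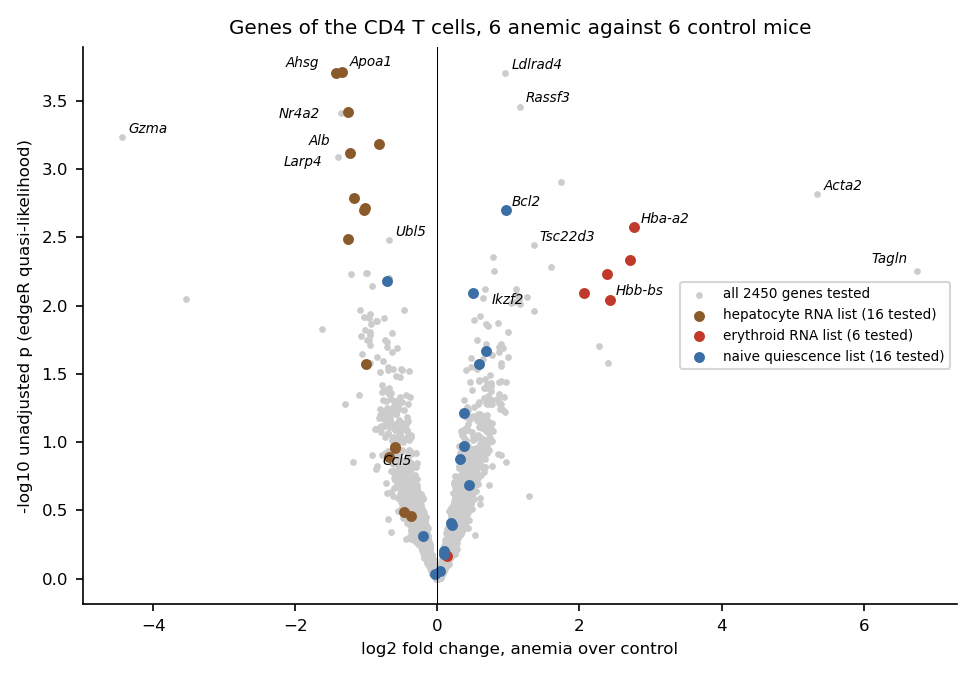
Log2 fold change (anemia over control) and -log10 of the unadjusted p of 2450 genes in the summed CD4 T cells of 6 anemic and 6 control mice (edgeR quasi-likelihood test). No gene passed an adjusted p of 0.05; hepatocyte genes (brown) lie to the left, red cell genes (red) to the right, and naive and quiescence genes (blue) mostly right of 0.

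Whether the CD4 T cells responded differently from the CD8 T cells of the same livers was tested as the difference between both fold changes, with the mouse as a block. None of 2437 genes passed in edgeR (percent called 0), and 124 had an unadjusted p under 0.05. The lowest adjusted p was 0.0639, shared by Ikzf2 (above), S100a6 (1.34 ± 0.28), Nav2 (2.71 ± 0.60) and Alcam (-2.76 ± 0.56), genes chosen after their values were seen apart from the first. Gzma followed with -4.66 ± 1.13 (adjusted p = 0.148). In the CD8 gate on its own 9 of 7012 genes were called, and in the gate without either co-receptor 73 of 9484. The 3 gates come from the same mice and held 329, 1616 and 5072 cells, so these counts were not set against each other.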

How the data were processed

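As deposited by the authors, the values were UMI counts per gene and barcode for 12 liver libraries (Cell Ranger 7.0.0 per the file headers; Cell Ranger and Seurat per the submitters' processing notes; mm10), without normalization. Whether intronic reads were counted was not given in the sources used here. Members, gates and 24 gene lists were chosen with earlier results of these data known. Member counts were summed per mouse. Mitochondrial and ribosomal protein genes were dropped, genes with a mean under 5 UMIs were not tested, and edgeR 4.0.16 (TMM, quasi-likelihood, Benjamini-Hochberg) was run in R 4.3.3, with DESeq2 1.42.0 and limma 3.58.1 as alternatives. The edgeR fits of the group effect and of the difference from the CD8 gate were tested on simulated counts with the same dispersion for each gene. The shares, DESeq2 and limma were not. Shares were compared by exact two-sided permutation of ranks, with Hodges-Lehmann intervals, in scipy 1.17.1. Coordinates are from GENCODE M21 (GRCm38). Named genes were the 4 markers, called genes, up to 4 members of each list with the highest mean level, and the 14 genes of the shares; others are said to be chosen after their values were seen. Members held 34869 to 102304 UMIs per mouse, so a gene at 0 UMIs is not shown to be absent. Other cell types were not analysed here, and a few genes of the lists and of the shares are not reported here.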

Additional observations from a re-analysis of the deposited data

Results flagged for a closer look

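A mouse stood far from the other 5 of its group in 22 of 124 tests of a group, by the gap to the nearest mouse over the range of the group. Chance flags about 1 in 20 groups, and related genes are flagged together.

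Control 6 had the most red cell RNA of its group. Its summed red cell list was 32139 CPM against 861 to 5807 in the others, and Hbb-bs was 30430, Hba-a1 9563, Hba-a2 6469, Hbb-bt 2966 and Alas2 365 TMM-scaled CPM. The B cell list was also highest in that mouse, 1116 CPM against at most 327. Anemia 3 had the most Ccl5 (5727 CPM against at most 577), and the summed effector and memory list followed it (11453 CPM against at most 6394). Anemia 1 held 1751 CPM of Tagln and 2431 CPM of Acta2, smooth muscle genes, where 1 cell carried 85 of the 85 Tagln UMIs of the gate and 1 cell carried 117 of its 123 Acta2 UMIs.

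Among single genes, Gzma was 799 CPM in control 2 (others at most 203), Bcl2 1537 CPM in anemia 5 (others at most 886), Foxo1 772 CPM in anemia 4 (others at most 473), Zfp36l2 1360 CPM in anemia 1 (others at most 1074), Ttr 3035 CPM in control 5 (others at most 1655) and Tnfrsf4 90.5 CPM in control 1 (others at least 179). The macrophage list summed to 508 CPM in anemia 2 against at most 286. Among the thinned shares, S100a4 was found in 12.8% of members in control 2, Cxcr3 in 11.5% in control 3 and in 4.35% in anemia 3, and Trdc in 2.78% in anemia 4. In the anemic group the other 5 mice had no cell with Cxcr3 or Trdc. Anemia 3 and anemia 4 held 23 and 36 members of at least 1000 UMIs, so these shares rest on very few cells. With the other mice at 0, any cell with a UMI raises a flag, and the chance rate above does not hold.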

How the results depend on the processing

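Against 0 genes called of 2450, no filter on low counts called 43 of 14410 and DESeq2 7. Cells without Alb UMIs and with at most 2% globin gave 1 of 424, and all T cells of the rule 166 of 10375. The calls of DESeq2 were Apoa1, Ahsg, Ttr, Trf, Alb, Nr4a2 and, higher, Ldlrad4. Leaving out a mouse called 0 to 5 genes: 5 globin and heme genes without control 6, Ccl5 and Nr4a2 without anemia 3, and Apoa1, Ahsg and Rbp4 without anemia 5. The other 8 settings of this test called 0. For the difference from the CD8 gate, against 0, leaving out a mouse called 0 to 6: 3, 1, 2, 1 and 6 without control 1, 2, 3, 4 and 6, and 5 and 4 without anemia 1 and 3. Library sizes without TMM moved the median log2 fold change to -0.10.

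With the replicate number as a replicate block, 9 genes were called (Ahsg, Tagln, Ttr, Apoa1, Gzma, Apoa2, Acta2, Alb and Rbp4). No pairing by number was seen: same-numbered mice had correlations of -0.32 to 0.094 and 1 of 6 matched best with its own number. With sums of 16 to 40 members per mouse, these correlations cannot decide whether the mice were paired. The blocked shares had exact p of 0.719 and 0.188.

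The difference in the share of kept cells (-0.012 percentage points) turned positive with at least 2 Cd4 UMIs (0.0125), without globin-rich cells (0.0249) and among Ptprc-positive cells (0.0365), was -0.024 with cells thinned to 1000 UMIs (0.0876% and 0.0636%, exact permutation p = 0.18), and was -0.0258 to -0.000825 without single mice. That in the share of T cells (1.77) passed with at least 2 Cd4 UMIs (0.66) and with at least 1 CD3 UMI (1.91), and was 1.02 to 2.27 without single mice, passing without anemia 3 (exact permutation p = 0.0173). Without anemia 3, 1 of 14 shares passed (Cxcr6, -7.83 points; 0 to 1 over all mice left out). The Foxp3 share (-0.235) turned to 0.518 and the Ctla4 share (4.96) to -1.02 at 700 UMIs; without single mice the Foxp3 share was -2.26 to 1.19, the Ikzf2 share (4.45) 0.978 to 7.71 and the Zbtb16 share (-5.86) -8.24 to -2.90.

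Of 809 log2 fold changes of 35 named genes under other settings, 751 kept direction and call. Another 40 with other processing and 9 without single mice kept direction and were called, unlike in the main test. The remaining 9 changed sign. In all T cells these were Cd28 (0.12), Ikzf2 (-0.23), Ctla4 (0.30), Gzma (0.10), Larp4 (0.026) and Aprt (0.16). Ikzf2 was -0.16 in cells without Alb UMIs and with at most 2% globin, a set of few cells per mouse. Ctla4 was 0.14 without cells over 8000 UMIs and -0.38 to 0.15 without single mice. The causes were not tested.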
